A study of Mus musculus with 8 samples.

Results

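The comparison described here set BCR-ABL1 cells that carried GFP from an AID reporter against BCR-ABL1 cells that did not. Its members were chosen by title: the 2 arrays titled BCR-ABL1 Aid-GFP-positive and the 2 titled BCR-ABL1 Aid-GFP-negative, which are 4 of the 8 arrays of the series. The other arrays hold splenic B cells and were used neither for scaling nor for any test. Total RNA was hybridised to mouse Affymetrix expression arrays, and the series asked which transcripts differ between reporter-positive and reporter-negative cells. All 4 samples share the source BCR-ABL1 Aid-GFP-Reporter BM, read here as bone marrow, so the fusion and the reporter are present in both groups, which by their labels differ only in GFP. The labels give no strain, age, culture time, sorting gate or reporter construct, and they do not say whether arrays of the same number came from separate mice or cultures. With nothing to show separate origins, the p-values below measure only the spread between these arrays, which may be technical.

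BCR-ABL1 is the fusion kinase of Philadelphia chromosome-positive leukaemias, and mouse bone marrow cells that carry it commonly grow as B cell precursors. The kinase signals through STAT5, PI3K and RAS. AID is the cytidine deaminase that starts somatic hypermutation and class switching in germinal centre B cells, and it is normally little used in B cell precursors. A GFP reporter for AID therefore splits such a population by the activity of a gene of mature, activated B cells. The AID gene's own transcript is not analysed here.

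Signals are array intensities after quantile normalization of the 4 arrays, with values under a floor of 32 set to 32, and each gene is read from its brightest probe set. Values are given as the pair of GFP-negative arrays and then the pair of GFP-positive arrays, in replicate order. A log2 fold change is GFP-positive minus GFP-negative, ± its standard error in the limma fit of 2 arrays against 2. A gene is called when its Benjamini-Hochberg adjusted p over all tested genes is under 0.05, and only called genes are said to have risen or fallen. An exact permutation of 2 arrays against 2 cannot go below a two-sided p of 0.333, so every call rests on the limma model.

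The 4 arrays were alike in overall signal and in RNA quality. Their trimmed mean intensities before normalization lay between 590 and 594. The ratio of 3' to 5' control probe sets was 1.41 and 1.46 for Gapdh on the GFP-negative arrays and 1.46 and 1.47 on the GFP-positive arrays, and 1.299 and 1.282 against 1.333 and 1.371 for Actb. Log2 signals correlated at 0.998 between the GFP-negative arrays and at 0.999 between the GFP-positive arrays, against 0.995 to 0.996 between groups. The median SD of the replicates was 0.064 on the log2 scale in the GFP-negative and 0.049 in the GFP-positive group.

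Several markers of early B cells were bright in both fractions. Vpreb1, which encodes a surrogate light chain subunit, gave 16850.1 and 16578 and then 16541 and 16541. Cd79a, which encodes a signalling chain of the B cell receptor, gave 10704 and 10910.0 and then 10125 and 10464. Of 27 pre-B cell markers with a probe set 25 were above the filter on low signal (41.5), as were 26 of 29 B lineage markers. Kit and Mme of the first list and Cd83 and Fcmr of the second were at the floor on all 4 arrays. Several defining genes of other cell types were at the floor on all 4 arrays, among them S100a8, Camp, Mpo, Elane and Itgam of myeloid cells, Cd3g of T cells, Hba-a1 and Alas2 of red cells, and Cdh5, Kdr and Tek of endothelium. At the floor on all 4 arrays were 12 of 24 myeloid, 8 of 22 T and NK, 10 of 16 endothelial, 5 of 13 erythroid and megakaryocyte, 4 of 10 mast cell and basophil and 3 of 12 dendritic markers. Other members of these lists were bright. Car2, a carbonic anhydrase of red cells, gave 9642 and 9699.9 and then 11759.9 and 11643, and the transferrin receptor gene Tfrc, which dividing cells of many types use, 8599 and 8146 and then 9088 and 9105. The endothelial list held Eng at 1521 and 1560.4 and then 1261 and 1226 and Pecam1 at 518 and 609 and then 706 and 757. The T and NK list held Prf1 at 847 and 879 and then 802 and 863, and the myeloid list Lyz1 at 466 and 550.0 and then 627 and 634.

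Of 12230 genes tested, 2015 were called, which is 16.5% of them: 1196 (9.78%) were higher and 819 (6.7%) lower in the GFP-positive cells. Most of these differences were small. Only 218 called genes changed at least 2-fold (1.78%), 93 upward (0.76%) and 125 downward (1.02%), and 1797 called genes changed by less. The middle 90% of all log2 fold changes ran from -0.31 to 0.39, and the median was -0.0002. At an unadjusted p under 0.05 there were 3275 genes. Large changes were mostly those of dimmer genes: the dimmest 25% of genes held 40 of the 2-fold rises and 63 of the 2-fold falls, the next 25% held 41 and 48, and the brightest 25% held 3 and 2.

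**Figure D1:**
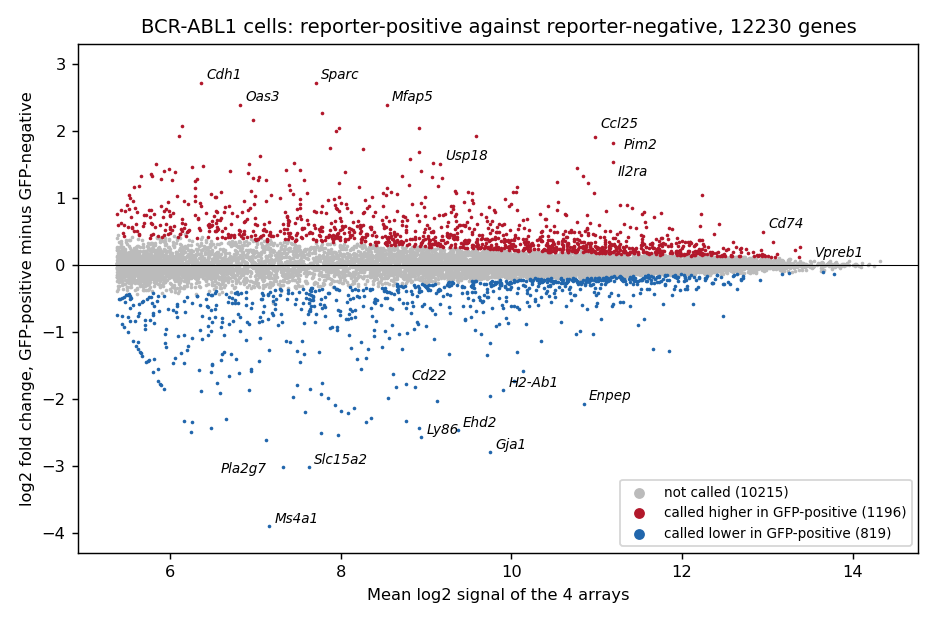
Each point is a gene, with its mean log2 signal over the 4 arrays on the x axis and its log2 fold change (GFP-positive minus GFP-negative) on the y axis. Red and blue mark the 1196 genes called higher and the 819 called lower, and the large changes lie among genes of low to middle signal while the brightest genes, such as Vpreb1, lie near 0.

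How firmly a call stood followed its size. Of the 218 genes with a 2-fold change, 204 were called in the same direction in every one of the 17 other analyses that tested them. The same held for 365 of the 538 called genes with a change between 0.5 and 1 on the log2 scale. Of the 1259 called genes under 0.5 only 186 did so, since 955 were lost when 1 of the arrays was left out and 810 when the variance was modelled without a trend on signal. The calls on small changes below are therefore given mostly as counts.

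The largest fall was in Ms4a1. This gene, which encodes the B cell antigen CD20, had a signal of 487 and 631 in the GFP-negative cells and of 32 and 42.7 in the GFP-positive cells. Only 1 of the GFP-positive arrays was above the floor there (log2 fold change -3.91 ± 0.15, adjusted p = 1.89e-17). Gja1, which encodes the gap junction protein connexin 43, went from 2333 and 2217 to 353 and 304 (-2.80 ± 0.084, adjusted p = 4.17e-19). Ly86, which encodes MD-1, the partner of the RP105 receptor, went from 1166 and 1233 to 216 and 187 (-2.58 ± 0.098). In these 3 genes the lowest GFP-negative signal was several times the highest GFP-positive one.

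The same was seen for a set of enzymes and transporters. Pla2g7, which encodes a secreted phospholipase that breaks down platelet-activating factor, went from 465 and 447 to 60.6 and 51.7 (-3.03 ± 0.13). Slc15a2, which encodes a peptide transporter, went from 587 and 542 to 72.4 and 66.4 (-3.02 ± 0.12). Enpep, which encodes the aminopeptidase known on B cell precursors as BP-1, was much brighter and went from 3935 and 3618 to 1032 and 780.0 (-2.07 ± 0.084, adjusted p = 1.14e-16). Maoa, which encodes monoamine oxidase A, went from 525 and 574 to 134 and 108 (-2.19 ± 0.12).

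Several regulators of signalling and of the cytoskeleton fell as well. Inppl1 encodes SHIP2, a phosphatase that removes a phosphate from the PI3K product, and went from 620.3 and 591 to 102 and 105 (-2.55 ± 0.11, adjusted p = 3.49e-16). Ehd2, which encodes a membrane-shaping ATPase of caveolae, went from 1572 and 1543 to 275 and 288 (-2.47 ± 0.086). Eps8, an adaptor that links growth factor receptors to actin, went from 945 and 1008 to 201 and 187 (-2.33 ± 0.098). Among receptors, Erbb3, the HER3 receptor, went from 736 and 684 to 155 and 125 (-2.35 ± 0.11). Lpar1, a receptor for lysophosphatidic acid, went from 567 and 608 to 127 and 126 (-2.22 ± 0.11), and Mc1r, a melanocortin receptor, from 502 and 538 to 82.0 and 101 (-2.51 ± 0.12), with -0.49 at a dim probe set that was not called. Grb7, Gnai1, Rap1gap2, Arhgap42, Adam19, Spsb4, Tle5, Hdac11 and Ly6f complete the falls among the 30 largest changes, together with Umod and Foxf2. The last pair were at the floor on both GFP-positive arrays, which makes their folds lower bounds of at least 5.66 for Umod and at least 5.04 for Foxf2.

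Fewer genes rose by as much. Cdh1, which encodes the junction protein E-cadherin, was at the floor on both GFP-negative arrays and at 250.5 and 178 on the GFP-positive arrays, a rise of at least 6.6-fold. Rcan2, which encodes an inhibitor of the phosphatase calcineurin, went from 57.2 and 61.4 to 272 and 259 (2.16 ± 0.13). Brighter genes that rose were Pim2, Ccl25 and Il2ra. Ccl25, a chemokine that draws thymocytes and gut-homing lymphocytes, went from 976 and 1116 to 3837 and 4008 (1.91 ± 0.066, adjusted p = 3.92e-18). Its other, dimmer probe set gave 127 and 111 and then 136 and 136 (0.19 ± 0.14) and was not called. The other chemokine and receptor genes moved less. Of 9 tested 2 rose, Ccl25 and Cxcr5 (22.2%, against 9.78% of all genes), and 1 fell (11.1%, against 6.7%). Without GFP-negative array 2 the rises were 4, and without GFP-positive array 2 the falls were 0.

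Genes of the extracellular matrix were among the largest rises. Sparc, which encodes a collagen-binding matrix protein, went from 79.4 and 84.0 to 485 and 594 (2.72 ± 0.12, adjusted p = 6.44e-16). Mfap5, a microfibril protein, went from 137 and 193 to 843 and 862 (2.39 ± 0.12), and Col5a2, a fibrillar collagen chain, from 215 and 263 to 944 and 1011 (2.04 ± 0.10). These genes also mark stromal cells, and more cells of a type cannot be told apart from more RNA per cell in samples of many cells. The summed signal of the 29 stromal markers with a probe set was 1891 and 2160 on the GFP-negative arrays and 3795 and 4004 on the GFP-positive arrays. These sums include Sparc, Mfap5 and Col5a2 themselves, so they are not a separate measure of stromal cells. Of the 29, 13 were above the filter, 10 of these with a positive sign, and Sparc, Mfap5 and Col5a2 were the 3 called. Fstl1 gave 306 and 423 against 383 and 346, Tagln 106 and 109.7 against 98.8 and 123, Acta2 129 and 123 against 114 and 103 and Col1a1 46.3 and 59.3 against 52.8 and 55.6. At the floor on all 4 arrays were 11, among them Col1a2, Col3a1, Lum and Postn. The part of stromal cells in these rises was not tested.

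In the wider list of matrix, adhesion and junction genes, 11 of 40 rose and 11 fell. These are 27.5% each, against 9.78% and 6.7% of all genes, with a median log2 fold change of 0.01. Mmp14, a membrane-bound matrix protease, went from 164 and 213 to 340.3 and 324 (0.83 ± 0.12), and Lgals3, the lectin galectin-3, from 153 and 196 to 384 and 305 (0.98 ± 0.13). Icam2, an adhesion molecule of leukocytes, fell from 1599 and 1522 to 1155 and 1186 (-0.41 ± 0.069), and Itgb7, the integrin chain of gut homing, from 122 and 137 to 75.4 and 73.4 (-0.80 ± 0.13). Itga4, which pairs with that chain, rose from 4573 and 4606 to 5561 and 5542 (0.27 ± 0.046).

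**Figure D2:**
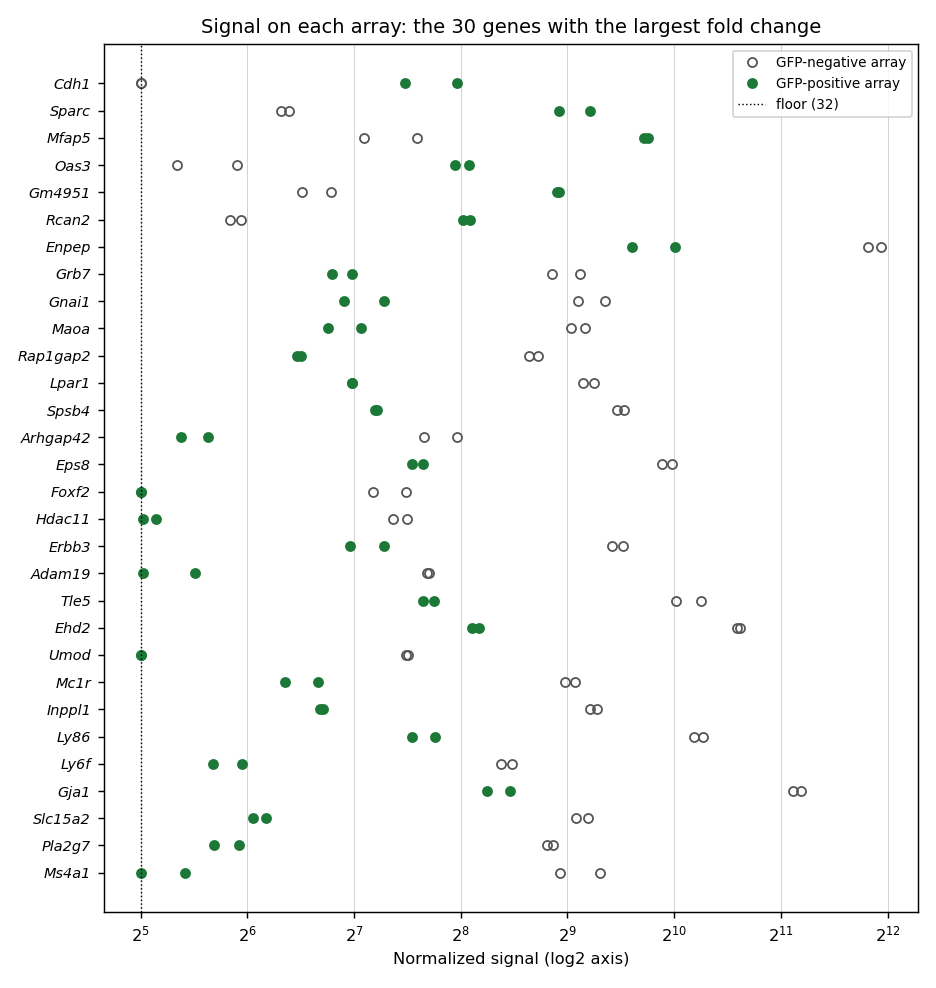
The 30 called genes with the largest log2 fold change are shown, with the normalized signal of each array on a log2 axis, open circles for GFP-negative and filled circles for GFP-positive arrays. The dotted line is the floor of 32, where both GFP-negative arrays of Cdh1 and both GFP-positive arrays of Umod and Foxf2 lie. No gene shown has overlapping groups, a property of 6442 of the 12230 tested genes.

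Genes of B cell precursors did not move as a block. Of 25 pre-B cell genes tested 8 rose (32%, against 9.78% of all genes) and 2 fell (8%, against 6.7%). Their median log2 fold change was 0.06. Il2ra, the CD25 chain of the IL-2 receptor that marks small pre-B cells, went from 1333 and 1401 to 3982 and 3971 (1.54 ± 0.058, adjusted p = 2.54e-17). Rag1, one of the recombinase genes that cut DNA in V(D)J recombination, went from 1089.8 and 1020.2 to 2971 and 2768 (1.44 ± 0.066, adjusted p = 7.86e-16). Its partner Rag2 went from 569.9 and 585 to 968 and 924 (0.71 ± 0.083). Nt5e, the ectoenzyme CD73 that makes adenosine, went from 313 and 323 to 929 and 904 (1.53 ± 0.091).

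Smaller rises were called for the cytokine receptor Il7r, from 3893 and 3840.1 to 4968 and 4881 (0.35 ± 0.048), and for Foxo1, a transcription factor that sustains Rag expression, from 4451 and 4393 to 5327 and 5454 (0.29 ± 0.047). Besides Enpep, the adhesion receptor Cd2 fell, from 3933 and 3902 to 2102 and 2114 (-0.89 ± 0.054). The surrogate light chain genes Igll1 (-0.05 ± 0.044) and Vpreb1 (-0.01 ± 0.034) and Dntt (0.06 ± 0.043), which encodes the polymerase that adds bases at V(D)J joins, did not pass the test.

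Among 26 genes of the B lineage at large 5 fell (19.2%, against 6.7% of all genes) and 1 rose (3.85%, against 9.78%). Their median was -0.07. Besides Ms4a1 and Ly86 the falls held Cd22, an inhibitory co-receptor, which went from 813 and 796 to 238 and 231 (-1.78 ± 0.097, adjusted p = 3.71e-14). Cd72, another inhibitory receptor, went from 2036 and 1916 to 1309 and 1260.2 (-0.62 ± 0.066). The core of the B cell receptor and its transcription factors showed small differences that were not called: Cd79b (0.00 ± 0.041), Ebf1 (0.09 ± 0.046), Blnk (0.08 ± 0.043) and Ikzf1 (0.02 ± 0.052). The rise was in Pax5, the factor that commits cells to the B lineage, from 196 and 202 to 313 and 337 (0.71 ± 0.11), and its other probe set gave -0.29, which was not called.

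Genes of mature B cells and BAFF signalling split evenly, with 5 of 24 higher and 5 lower. These are 20.8% each, against 9.78% and 6.7% of all genes. Tnfrsf13c, the receptor for the survival factor BAFF, fell from 3326 and 3396 to 2551 and 2487 (-0.42 ± 0.054). Klf2, a transcription factor of quiescence and homing, fell from 575 and 726 to 334 and 333 (-0.95 ± 0.11), and its relative Klf3 from 394 and 393 to 199 and 184 (-1.04 ± 0.11). Cxcr5, the chemokine receptor for B cell follicles, rose from 993 and 1089 to 1311 and 1329 (0.34 ± 0.073), and the complement regulator Cd55 from 389.6 and 386 to 612 and 604 (0.65 ± 0.093).

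Within MHC class II presentation the chaperones and a class II chain moved in opposite directions. Of 18 genes 6 rose (33.3%, against 9.78% of all genes) and 2 fell (11.1%, against 6.7%). Cd74, the invariant chain that guides class II molecules, went from 6497 and 6883 to 9292 and 9498 (0.49 ± 0.043, adjusted p = 8.26e-10). H2-DMa and H2-DMb2, chains of the peptide exchange factor, went from 931 and 1061 to 1659.9 and 1703 (0.76 ± 0.074) and from 1697 and 1689 to 2518 and 2582 (0.59 ± 0.060). H2-Ab1, which encodes a beta chain of the class II molecule itself, fell from 1774 and 1897 to 487 and 517 (-1.87 ± 0.078, adjusted p = 1.29e-16), and Ifi30, a thiol reductase of antigen processing, from 7165 and 7341 to 5446 and 5864 (-0.36 ± 0.046). H2-Aa, the partner chain, was near the filter on all arrays, at 51.6 and 63.6 and 49.2 and 59.2 (-0.09 ± 0.15). The further class II beta chain genes H2-Eb1 and H2-Eb2 were tested and not called, so the opposite direction was seen in H2-Ab1 alone among the class II chains. The count of rises was 3 without GFP-positive array 1 and 3 without the variance trend.

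Interferon-stimulated genes rose together. Interferons induce these genes in most cells, and their products sense, edit or destroy viral RNA or attack vacuoles. Of 56 interferon response genes tested 39 rose (69.6%, against 9.78% of all genes) and 1 fell, with a median log2 fold change of 0.35. Of 14 interferon-induced GTPases 11 rose and 0 fell, with a median of 0.50. Over all the other analyses the first count ran from 28 to 40 and the second from 8 to 11.

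The response genes rose from low signals in many cases. Oas3, which makes the messenger that activates RNase L, went from 40.5 and 59.8 to 247 and 269 (2.39 ± 0.15, adjusted p = 8.28e-13). Usp18, a protease that removes ISG15 and dampens interferon signalling, went from 340.0 and 339.7 to 1009.8 and 934 (1.51 ± 0.090, adjusted p = 2.42e-13). Ifit1 and Ifit3, which bind foreign RNA, went from 81.9 and 64.2 to 213 and 198 (1.503 ± 0.14) and from 249 and 284 to 649 and 691 (1.33 ± 0.10). In each of these genes both GFP-positive arrays were above both GFP-negative arrays, by more than the spread within either pair. Groups without overlap, in either direction, were found in 6442 of the 12230 tested genes.

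Sensors and transcription factors of the pathway rose too. Irf7, the factor that amplifies type I interferon production, went from 124 and 146 to 277 and 289 (1.07 ± 0.12). Ifih1, the RNA sensor MDA5, went from 113 and 109 to 234 and 209.9 (1.00 ± 0.12). Stat2 and Irf9, subunits of the factor that interferon receptors activate, rose by less: 0.53 ± 0.093 from 429 and 412, and 0.48 ± 0.076 from 792 and 779.5. Brighter members with rises were Ifitm3, which blocks virus entry, from 1339 and 1418 to 2863 and 2970.1 (1.08 ± 0.062), and Lgals3bp, a secreted glycoprotein, from 947 and 982 to 2234 and 2295 (1.23 ± 0.067). Ifi27l2a, already bright in the GFP-negative cells, went from 3496 and 3843 to 6229 and 6182 (0.76 ± 0.051).

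Among the GTPases, which attack membranes around pathogens, the largest rises were in the immunity-related group. Gm4951 went from 91.1 and 110.0 to 477 and 485 (2.27 ± 0.12), and Iigp1 from 132 and 116 to 529 and 460.3 (1.99 ± 0.12). Gbp6 went from 327 and 340.2 to 636 and 613 (0.90 ± 0.096) and Gbp2 from 4425 and 4604 to 6124 and 6280.3 (0.46 ± 0.047). Igtp, which was bright in both fractions, went from 2247 and 2439 to 3312 and 3521 (0.54 ± 0.058). GTPases of one family are similar in sequence, so probe sets may share targets among them.

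The response had members that did not move with the rest. Ifit2, a neighbour of Ifit1 and Ifit3 in function, gave 896 and 910.0 and then 971 and 925 (0.07 ± 0.077) and was not called. The antigen processing genes Tap1 (0.02 ± 0.057), Psmb8 (0.07 ± 0.043) and Psmb9 (-0.00 ± 0.048) and the membrane protein gene Ly6e (-0.01 ± 0.037) were not called either. The 1 fall, against 3 without GFP-negative array 1, was in Bst2, the virion tether tetherin, from 875 and 972 to 739 and 776 (-0.28 ± 0.082, adjusted p = 0.0154). It was not called without GFP-negative array 2, GFP-positive array 1 or GFP-positive array 2, where its adjusted p was 0.122, 0.203 and 0.0656. Of 12 dendritic cell markers, a list that also holds Bst2, 7 were above the filter, with 1 called higher and 2 lower, and their summed signal was 2302 and 2516 against 2187 and 2213. Klk1 gave 454 and 473 and then 513 and 509.6, Siglech gave 52.3 and 60.2 and then 57.7 and 69.8, and Itgax, Xcr1 and Cd209a were at the floor on all 4 arrays. The part of such cells in the interferon genes was not tested. The call on Ccr7, the other dendritic fall, was lost without GFP-positive array 2.

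**Figure D3:**
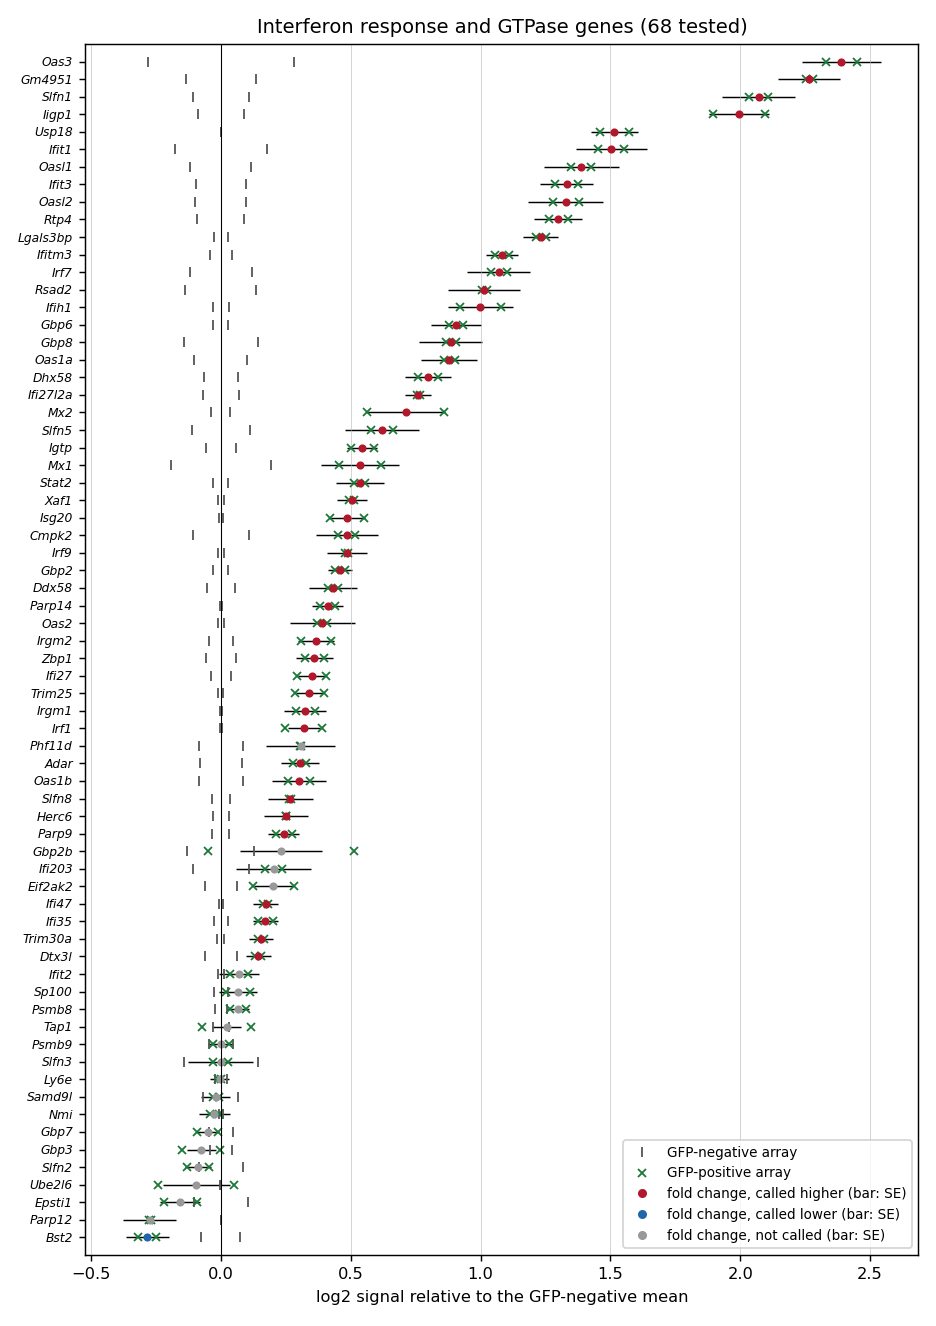
Each row is a tested interferon response or GTPase gene, with the log2 signal of each array relative to the mean of the GFP-negative arrays on the x axis, ticks for GFP-negative and crosses for GFP-positive arrays. Dots with bars give the log2 fold change and its standard error, red where called higher, blue where called lower and grey where not called, and the values run from -0.28 for Bst2 to 2.39 for Oas3.

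Promoters of 4 members that rose are shown because they hold the same short element, which was found in 12 of the 27 response genes that rose and had a promoter sequence. The 250 bases before the RefSeq start site are printed 5' to 3' on the strand of the gene (GRCm38.p6), with matches to the core of the interferon-stimulated response element (GAAA, any 2 bases, GAAA) in capitals on either strand. A match in capitals that begins with TTTC lies on the other strand.
Ifit1 (chr19:34640639-34640888, plus strand): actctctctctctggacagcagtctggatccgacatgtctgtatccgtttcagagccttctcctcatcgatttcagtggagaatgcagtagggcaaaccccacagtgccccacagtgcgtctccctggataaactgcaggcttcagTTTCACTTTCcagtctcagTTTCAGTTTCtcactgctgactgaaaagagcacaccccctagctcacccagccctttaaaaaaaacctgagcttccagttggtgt
Ifit3 (chr19:34583279-34583528, plus strand): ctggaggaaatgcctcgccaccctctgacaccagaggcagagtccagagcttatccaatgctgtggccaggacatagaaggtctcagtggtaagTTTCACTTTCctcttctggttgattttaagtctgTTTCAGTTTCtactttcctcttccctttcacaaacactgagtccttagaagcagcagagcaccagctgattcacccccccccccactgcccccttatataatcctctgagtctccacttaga
Oas3 (chr5:120777660-120777909, minus strand): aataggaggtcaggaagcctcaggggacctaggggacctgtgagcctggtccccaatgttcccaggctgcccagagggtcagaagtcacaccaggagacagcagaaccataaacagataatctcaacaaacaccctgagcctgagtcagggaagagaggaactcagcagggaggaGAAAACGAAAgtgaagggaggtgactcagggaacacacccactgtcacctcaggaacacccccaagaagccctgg
Igtp (chr11:58199306-58199555, plus strand): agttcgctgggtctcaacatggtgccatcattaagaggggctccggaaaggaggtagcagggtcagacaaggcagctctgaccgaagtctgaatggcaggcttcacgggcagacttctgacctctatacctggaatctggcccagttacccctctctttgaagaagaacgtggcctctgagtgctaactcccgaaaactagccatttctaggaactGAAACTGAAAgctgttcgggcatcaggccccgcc
The first base of the matches lies 104 and 85 bases before the start of Ifit1, 156 and 122 before that of Ifit3, 75 before that of Oas3 and 34 before that of Igtp.

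The element was counted on both strands of all RefSeq windows from 250 bases before to 50 after a start site. It was found in 3.44% of 32851 windows and in 3.6% of the 9885 tested genes that had a window. The 12 of 27 response genes that rose and held it are 44.4%, against 2 of 15 that were not called (13.3%). Among the GTPases it was held by 4 of 5 that rose and by 3 of 3 that were not called, so it did not separate the called from the uncalled GTPases. The promoter of Bst2, which fell, held it as well. A match is a run of letters and not a measured binding site.

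Cytokine signalling through STAT5 was described by a list that held targets and feedback genes as well as JAK and STAT genes. Of 30 genes for STAT5, SOCS and PIM 11 rose (36.7%, against 9.78% of all genes) and 1 fell (3.33%, against 6.7%), with a median of 0.06. Pim2, a survival kinase, showed the clearest change, from 1194 and 1301 to 4467 and 4299 (1.81 ± 0.060, adjusted p = 2.79e-18). Socs3, a feedback inhibitor of JAK kinases, went from 1221 and 1243 to 2193 and 1943 (0.74 ± 0.069, adjusted p = 2.37e-09). Lif, a cytokine of the IL-6 family, went from 729 and 661 to 1296 and 1450.2 (0.98 ± 0.081). Gimap4, a GTPase of lymphocytes, went from 1830.0 and 1802 to 3396 and 3364 (0.90 ± 0.057).

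Other genes that STAT5 is known to drive did not pass the test. Pim1 gave 8697 and 8438 and then 8762 and 9188 (0.07 ± 0.042), and Socs2 gave 7358 and 7321 and then 7509 and 7509 (0.03 ± 0.042), so both were bright in the GFP-negative and the GFP-positive cells. The transcription factor genes Stat5a (0.04 ± 0.058) and Stat5b (-0.13 ± 0.065) and the survival gene Bcl2l1 (-0.03 ± 0.065) were not called. The 1 fall, in the feedback gene Cish (-0.19 ± 0.059), was lost without the variance trend and without GFP-negative array 1, GFP-positive array 1 or GFP-positive array 2 (adjusted p = 0.259, 0.161 and 0.131).

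The Socs3 promoter is shown as the member that rose with a match to TTCNNNGAA, the palindrome that STAT factors bind, in capitals within the 250 bases before its start.
Socs3 (chr11:117969367-117969616, minus strand): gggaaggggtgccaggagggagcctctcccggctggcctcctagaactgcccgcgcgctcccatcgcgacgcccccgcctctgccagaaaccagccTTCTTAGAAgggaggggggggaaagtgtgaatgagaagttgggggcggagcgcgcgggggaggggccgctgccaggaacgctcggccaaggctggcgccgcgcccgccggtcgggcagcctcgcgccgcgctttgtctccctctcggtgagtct
The match begins 154 bases before the start. This motif was found in 8.3% of the 32851 windows and in 8.2% of tested genes with a window. It was held by 3 of the 9 members that rose and had a window, Bcl6, Il7r and Socs3, by 0 of 14 that were not called and by Cish, which fell. Bcl6 itself was not called without GFP-negative array 2 or either GFP-positive array.

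Changes in the BCL2 family of survival genes were small. Of 16 tested 5 rose (31.2%, against 9.78% of all genes) and 1 fell (6.25%, against 6.7%). Without GFP-positive array 2 fewer rises were left. Bcl2 itself, which blocks cell death, went from 2581 and 2455 to 3653 and 3765 (0.56 ± 0.054, adjusted p = 6.24e-09), and 4 of its 5 probe sets were called in that direction. Pmaip1, the death-promoting NOXA, rose from 1609 and 1549 to 1913 and 1996 (0.31 ± 0.064). Mcl1 (0.07 ± 0.047) and Bcl2l11 (0.09 ± 0.045), which encode a protector and the killer BIM, were not called.

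Glycolysis and hypoxia genes fell as a group, by small amounts. Of 36 tested 22 fell (61.1%, against 6.7% of all genes) and 1 rose, with a median log2 fold change of -0.19. The number of falls was 9 without the variance trend and 14 without GFP-positive array 2. The falls described next were called in every analysis that tested them. Slc16a3, which exports lactate, went from 1467 and 1682 to 839 and 862 (-0.89 ± 0.076, adjusted p = 6.11e-10). Slc2a3, a glucose transporter, went from 1541 and 1595 to 972 and 1098 (-0.60 ± 0.074). Ak4, a mitochondrial adenylate kinase, went from 2824 and 2767 to 1707 and 1493 (-0.81 ± 0.065, adjusted p = 1.47e-10).

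Some of the largest ratios were in dim members. Adm, the hypoxia-induced peptide adrenomedullin, went from 91.0 and 85.0 to 38.2 and 48.0 (-1.04 ± 0.15), and P4ha2, a collagen prolyl hydroxylase, from 83.8 and 93.1 to 33.9 and 32 (-1.42 ± 0.14), with 1 GFP-positive array at the floor. Ndrg1, which stress and low oxygen induce, went from 366 and 462 to 263 and 262 (-0.65 ± 0.11), Mxi1, an antagonist of MYC, from 2386 and 2390.2 to 1789 and 1709 (-0.45 ± 0.060), and Pfkp, a phosphofructokinase, from 4714 and 4821 to 3527 and 3919 (-0.36 ± 0.053). The bright glycolytic enzymes differed by little. Ldha gave 12676 and 13428 and then 12053 and 12467 (-0.09 ± 0.039) and was not called. Aldoa (-0.11 ± 0.037), Pgk1 (-0.12 ± 0.039), Pkm (-0.14 ± 0.040) and Tpi1 (-0.22 ± 0.043) were called lower. The rise was in Car9, a carbonic anhydrase that is also induced by low oxygen, from 226 and 243 to 375 and 365 (0.66 ± 0.11).

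Ankrd37, a hypoxia-induced ankyrin repeat gene, went from 2406 and 2569 to 1644 and 1720.1 (-0.56 ± 0.062, adjusted p = 5.63e-08). Its promoter is shown with matches to ACGTG, the core that hypoxia-inducible factors bind, in capitals on either strand.
Ankrd37 (chr8:45999851-46000100, minus strand): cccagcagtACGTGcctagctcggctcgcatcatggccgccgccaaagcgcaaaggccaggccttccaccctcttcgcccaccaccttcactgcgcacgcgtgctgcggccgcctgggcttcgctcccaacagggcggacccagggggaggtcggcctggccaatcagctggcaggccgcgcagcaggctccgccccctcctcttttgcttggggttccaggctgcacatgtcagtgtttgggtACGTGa
The matches begin 241 and 6 bases before the start. Since ACGTG is only 5 bases long it was common: 19.6% of all windows and 28.8% of tested genes with a window held it. It was held by 15 of 20 members that fell (75%) and by 11 of 13 that were not called (84.6%), so it did not separate the falls from the rest of the list.

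**Figure D4:**
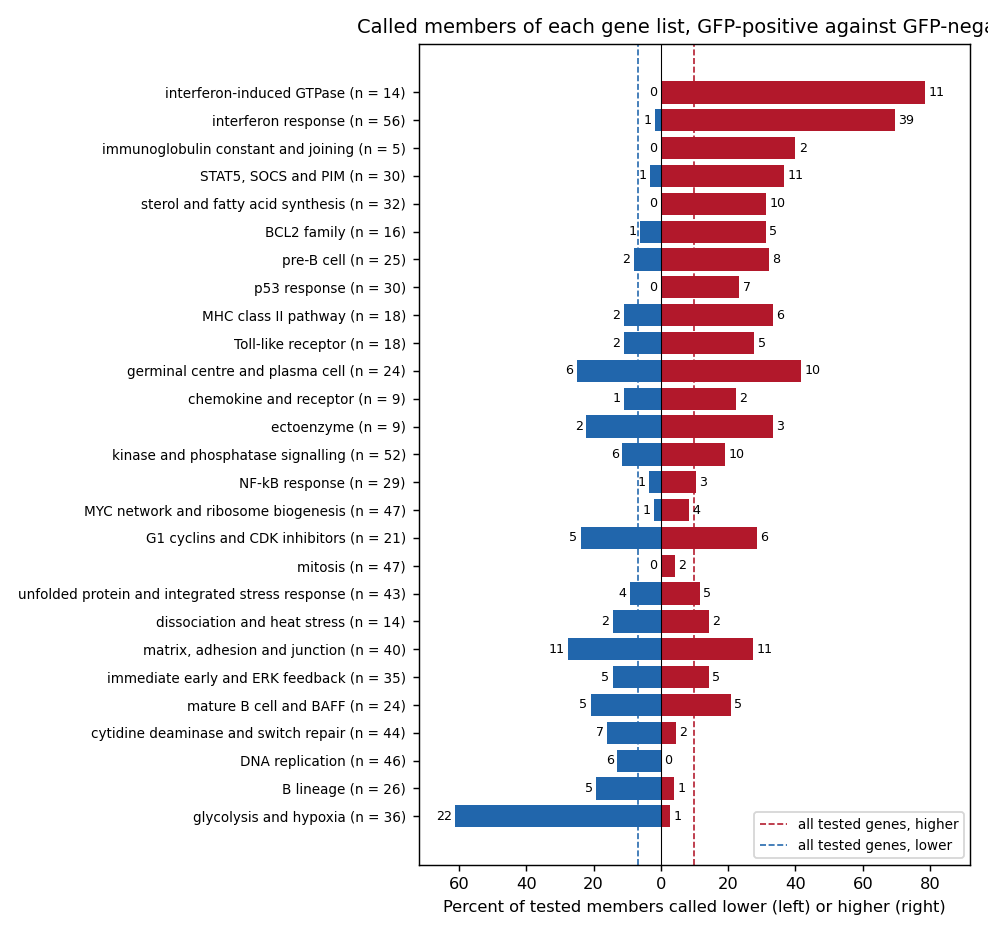
For each gene list the bars give the percentage of tested members called higher (red, right) and lower (blue, left), with the counts beside the bars and the number tested after the name. Dashed lines mark 9.78% and 6.7%, the shares of all 12230 genes called higher and lower, and the interferon lists at the top and the glycolysis and hypoxia list at the bottom lie farthest from them.

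Sterol and fatty acid synthesis genes were called only upward, in 10 of 32 cases (31.2%, against 9.78% of all genes). Their median was 0.07. Hsd17b7, an enzyme of cholesterol synthesis, showed the largest of these changes, from 932 and 861 to 1345 and 1265 (0.54 ± 0.076). The list's other changes were small and depended on single arrays: 3 rises were left without GFP-negative array 1, 4 without GFP-positive array 1, 2 without GFP-positive array 2 and 2 without the variance trend.

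Proliferation was described by lists of mitosis and DNA replication genes. Of 47 mitosis genes 2 rose (4.26%, against 9.78% of all genes) and 0 fell (against 6.7%). The rises were 0 without the variance trend, and fewer were left without any single array. Of 46 DNA replication genes 0 rose (against 9.78% of all genes) and 6 fell (13%, against 6.7%), with 0 falls without the variance trend. Without GFP-positive array 2 fewer falls were left. Over all the other analyses the mitosis rises ran from 0 to 11 and the replication falls from 0 to 13, the highest with the replicate number as a block. Mki67, a marker of cycling cells, gave 7536 and 7393 and then 7163 and 7229 (-0.05 ± 0.042). Myc gave 3482 and 3704 and then 3602 and 3766 (0.04 ± 0.053). In the MYC network and ribosome biogenesis 4 of 47 genes rose (8.51%, against 9.78% of all genes) and 1 fell (2.13%, against 6.7%). Without either GFP-positive array fewer rises were left. Mxd4, which opposes MYC, rose from 3312 and 3522 to 4322 and 4665 (0.39 ± 0.053).

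The regulators of entry into the cycle were called in both directions, with 6 of 21 higher and 5 lower. These are 28.6% and 23.8%, against 9.78% and 6.7% of all genes. Cdk6, a kinase that drives G1, rose from 2580.1 and 2537 to 3644 and 3286 (0.44 ± 0.057), and its partner Ccnd2 from 7765 and 7412 to 9610.4 and 9699.9 (0.35 ± 0.041). Cdkn2a and Cdkn2b, which encode inhibitors of that kinase and ARF, rose as well, from 1459.6 and 1518 to 1898 and 1983 (0.38 ± 0.064) and from 146 and 189 to 275 and 301 (0.79 ± 0.13). Cdk2 fell from 2341 and 2329 to 1942 and 1905 (-0.28 ± 0.059). The falls were 1 without GFP-positive array 2 and 3 without either GFP-negative array.

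Of 30 genes of the p53 response 7 rose (23.3%, against 9.78% of all genes) and 0 fell (against 6.7%). Their median was 0.11, and 4 rises were left without the variance trend. Besides Pmaip1, the death receptor gene Fas rose from 173 and 220.0 to 289 and 328 (0.66 ± 0.12), and Plk2, a kinase of the damage response, from 139 and 145 to 204 and 235 (0.62 ± 0.12). Mdm2, which removes p53 and is a classic target of it, gave 4412 and 4127 and then 4263 and 4331 (0.01 ± 0.050) and was not called. Cdkn1a, another p53 target, rose from 5805 and 5764 to 6803 and 7084 (0.26 ± 0.044).

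Genes for cytidine deaminases and for the repair steps of class switching and hypermutation bear on the enzyme that the reporter follows. Of 44 tested 2 rose (4.55%, against 9.78% of all genes) and 7 fell (15.9%, against 6.7%), and 0 reached 2-fold, which 1.78% of all genes did. Ung, the glycosylase that excises uracil left by AID, gave 3060.1 and 3082 and then 3183 and 3036 (0.02 ± 0.054). The falls numbered 4 without either GFP-negative array, 2 without GFP-positive array 1, 1 without GFP-positive array 2 and 1 without the variance trend, and the rises 1 without either GFP-positive array and 0 without the trend.

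Germinal centre and plasma cell genes were called in both directions, 10 of 24 upward and 6 downward. These are 41.7% and 25%, against 9.78% and 6.7% of all genes, and the median was -0.003. Jchain, the joining chain of secreted antibody, went from 260.3 and 278 to 935 and 804 (1.69 ± 0.099, adjusted p = 1.8e-13). Prdm1, the plasma cell factor BLIMP-1, went from 80.2 and 64.01 to 138 and 111 (0.79 ± 0.15), and Nfil3, a factor of class switching to IgE, from 71.5 and 70.2 to 113 and 124 (0.74 ± 0.13). Slamf7, a surface receptor of plasma cells, fell from 359 and 401 to 112 and 98.8 (-1.85 ± 0.12), and Basp1 from 204 and 228 to 75.2 and 85.2 (-1.43 ± 0.13). The falls were 3 without GFP-positive array 1 and 2 without the variance trend. Of 5 immunoglobulin constant and joining genes tested, Jchain and Igk were called higher, the latter not without GFP-positive array 1. The other Igk probe set fell (-1.004 ± 0.13), and the mean of the gene's probe sets gave -0.27, which was not called. Ighm gave 7841 and 7267 and then 7481 and 8399.8 (0.07 ± 0.050).

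Among 52 kinases, phosphatases and adaptors downstream of BCR-ABL1 and the B cell receptor, 10 rose and 6 fell. These are 19.2% and 11.5%, against 9.78% and 6.7% of all genes. Bcr (0.13 ± 0.067) and Abl1 (-0.02 ± 0.065), the mouse genes that correspond to the partners of the fusion, were not called. Gab1, a docking protein for PI3K, rose from 694 and 704 to 1055 and 1073 (0.61 ± 0.078), and Tec, a kinase next to the B cell receptor, from 1495 and 1502 to 1913 and 1936 (0.36 ± 0.063). Pik3ap1, the PI3K adaptor BCAP, fell from 552 and 587 to 399 and 347 (-0.61 ± 0.099), and Rasgrp3, an activator of RAS, from 109 and 113 to 44.6 and 44.3 (-1.32 ± 0.14). The rises were 6 without GFP-positive array 1, 4 without GFP-positive array 2 and 5 without the variance trend.

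Immediate early and ERK feedback genes split, with 5 of 35 higher and 5 lower (14.3% each, against 9.78% and 6.7% of all genes). Egr1, an immediate early factor that ERK induces, fell from 2613 and 2444 to 1241 and 1299 (-0.99 ± 0.064, adjusted p = 1.41e-12), and Klf10, a repressor induced by TGF-beta, from 2733 and 2582 to 2012 and 1835 (-0.47 ± 0.062). Spry4, an inhibitor of the ERK pathway, rose from 71.3 and 69.9 to 139 and 109.5 (0.81 ± 0.14; 0.13, not called, at a dimmer probe set), and Jun from 2847 and 2809.9 to 3426 and 3589 (0.31 ± 0.054). The falls were 2 without GFP-positive array 2.

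Of 29 genes of the NF-kB response 3 rose (10.3%, against 9.78% of all genes) and 1 fell (3.45%, against 6.7%). Tnfaip3, the feedback inhibitor A20, went from 742 and 715 to 1544 and 1551 (1.09 ± 0.074, adjusted p = 3.77e-12), with 0.53, not called, at a dim probe set, and Gadd45b from 681 and 662 to 1025 and 1085 (0.65 ± 0.080), while Nfkbia (0.07 ± 0.047) was not called. Of 18 Toll-like receptor genes 5 rose (27.8%, against 9.78% of all genes) and 2 fell (11.1%, against 6.7%). Fewer of these rises were left without either GFP-positive array. Tlr7, the receptor for single-stranded RNA, went from 56.6 and 73.2 to 169.7 and 169 (1.40 ± 0.14), and Tlr1 from 70.3 and 72.8 to 114 and 112 (0.66 ± 0.13).

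In the unfolded protein and integrated stress responses 5 of 43 genes rose and 4 fell (11.6% and 9.3%, against 9.78% and 6.7% of all genes). Trib3, a pseudokinase induced by ATF4, rose from 667 and 721 to 1077 and 1117 (0.66 ± 0.080), and Slc1a5, a glutamine transporter, fell from 3399.8 and 3272 to 2051 and 2306 (-0.62 ± 0.060). The rises were 3 without GFP-negative array 1 and 2 without GFP-positive array 1, and the falls 2 without the latter. Of 9 ectoenzymes 3 rose (33.3%) and 2 fell (22.2%), and of 14 genes of dissociation and heat stress 2 rose and 2 fell (14.3% each). Of 9 housekeeping genes 0 rose and 1 fell (11.1%). The rises of ectoenzymes were 1 without GFP-negative array 1 or GFP-positive array 2, those of dissociation genes 1 and their falls 0 without GFP-positive array 2, and the housekeeping fall was lost without any single array. The housekeeping gene Hprt gave 8820.1 and 9021 and then 9179 and 9155 (0.04 ± 0.040).

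Single markers of other cells were called in both directions, and their part in the results above was not tested. For comparison, 9.78% of all tested genes were called higher and 6.7% lower. The summed signal of the 24 myeloid markers was 2250 and 2398 in the GFP-negative and 2505 and 2469 in the GFP-positive cells, where 2 of 9 tested rose and 2 fell. Among them Fcer1g, a signalling chain of Fc receptors, fell from 112 and 117 to 49.1 and 68.9 (-0.98 ± 0.15). For 22 T and NK markers the sums were 3125 and 3334 against 3135 and 3453, and 2 of 9 rose and 1 fell. Cd5, which B-1 cells also carry, rose from 125 and 145 to 235 and 269 (0.90 ± 0.12), and the NK receptor Klrd1 from 181 and 200.3 to 325 and 343 (0.81 ± 0.11). Called members were 2 of 6 erythroid and megakaryocyte markers (higher), 1 of 7 dendritic markers higher and 2 lower, 1 of 4 mast cell and basophil markers lower, 1 of 3 endothelial markers higher and 1 lower, and 1 of 9 progenitor markers higher and 2 lower. Most of these counts changed when a single array was left out. Myeloid rises were 0 without GFP-positive array 1 and 1 without GFP-negative array 1 or GFP-positive array 2, and myeloid falls were 1 without any of these 3. Falls of T and NK markers were 0 without GFP-positive array 1 and 2 without GFP-positive array 2. Erythroid rises were 1 without GFP-negative array 2 or either GFP-positive array. Dendritic falls were 0 without GFP-positive array 2 and 1 without GFP-negative array 2 or GFP-positive array 1, and progenitor falls 0 without GFP-negative array 2 and 1 without either GFP-positive array. The mast cell fall was lost without either GFP-negative array, and the endothelial rise without GFP-negative array 1 or GFP-positive array 2.

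Where a gene had several probe sets, each read the same RNA sample. They lie on the same arrays, so they check the probes and not the replicates. Of the 12230 genes, 5947 had at least 2 tested probe sets, and in 3383 of them (56.9%) all probe sets had the same sign of change. Among the 4936 of these genes that were not called the share was 51.2%. It was 84.8% among the 1011 called and 93.9% among the 82 with a called 2-fold change, that is 77 of 82. In 67 of these 82 (81.7%) at least 2 probe sets were called when all 27022 probe sets were fitted together, a fit that called 2159 probe sets (7.99%), 1271 higher and 888 lower. Standard errors in the rest of this section are from that fit, so they can differ from those of the gene fit above. Those given above for a probe set other than the brightest are from it too.

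The size of the change was compared as well. Across the 5947 genes the log2 fold changes of the brightest and the next probe set correlated at 0.751, a description over genes that share the same 4 arrays. The correlation was 0.806 where the second probe set was above its median signal of 398 and 0.739 below it. Among the 82 genes with a called 2-fold change 78 had the same sign at both, and the median change was 1.39 at the brightest and 1.14 at the second.

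The genes with the most probe sets called in the same direction were spread over many functions. Tsc22d1, a transcription regulator induced by TGF-beta, rose at all 4 of its probe sets, from 119 and 131 to 505 and 521 at the brightest (2.04 ± 0.12) and from 42.1 and 51.6 to 104 and 79.3 at the dimmest (0.96 ± 0.17). Csf1, the macrophage growth factor M-CSF, also rose at all 4, from 499 and 503 to 981 and 947 at the brightest (0.94 ± 0.082). Zdhhc2, a palmitoyl transferase, fell at all 4, from 1934 and 1934 to 917 and 848 at the brightest (-1.13 ± 0.069). E130308A19Rik fell at all 5 of its probe sets, from 1229.7 and 1246 to 664 and 654 at the brightest (-0.91 ± 0.074). Mpzl2, a junction adhesion protein, fell at its 3 probe sets, from 2188 and 1666 to 609.6 and 535 at the brightest (-1.74 ± 0.12).

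Smaller changes were repeated across probe sets too. Ctsb, the lysosomal protease cathepsin B, fell at 4 probe sets, from 4598 and 4918 to 3778 and 3874 at the brightest (-0.31 ± 0.050). Pcmtd1 rose at 5, by 0.32 ± 0.059 at the brightest, and Arhgap9 at 4, by 0.32 ± 0.072, and both genes lost their call without the variance trend. H2-Ab1 fell at all 3 of its probe sets, with -1.87 ± 0.077, -1.85 ± 0.097 and -1.22 ± 0.13 in order of signal. Tlr7 rose at all 3, with 1.40 ± 0.16, 1.56 ± 0.16 and 1.34 ± 0.15, and Cd36, a scavenger receptor for lipids, fell at all 3, from 217 and 249 to 66.1 and 60.9 at the brightest (-1.87 ± 0.14). Paqr8, B3galt1, Ecpas and Eps8 complete the 15 genes that led this order.

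In other genes a dim probe set was not called where brighter ones were. Gja1 fell at 5 of its 6 probe sets, with log2 fold changes of -2.80 ± 0.089 at the brightest and -2.44 ± 0.14 at the fifth. Its dimmest probe set gave 46.0 and 48.5 and then 37.0 and 37.0 (-0.35 ± 0.14), near the filter. Ehd2 fell at a pair of probe sets (-2.47 ± 0.085 and -2.27 ± 0.11) and gave -0.30 ± 0.15 at the third, where its signal was 73.4 and 80.02 and then 57.7 and 67.5. Sparc rose at its brightest (2.72 ± 0.14) and at its second, where it went from the floor on both GFP-negative arrays to 118 and 100.2. The third gave 49.1 and 46.9 and then 49.7 and 51.3 (0.07 ± 0.14). In these 3 genes the probe set that was not called was the dimmest.

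Mtor, the growth-controlling kinase, was the bright case of this kind. Its main probe set went from 5001 and 5038 to 2019 and 2167 (-1.26 ± 0.053, adjusted p over probe sets = 1.12e-07), and the second from 347 and 271 to 117 and 106 (-1.46 ± 0.15). The third gave 160.1 and 182 and then 158 and 174 (-0.04 ± 0.14), so its signal was above that of the second in the GFP-positive cells, and it was not called. Nt5e rose at its brightest (1.53 ± 0.091) and dimmest probe sets (0.64 ± 0.16) and gave -0.18 ± 0.17 at the other. Lpar1, Gng4, Camk4, Sox6 and Rftn2 also had at least 2 probe sets called and another that was not, or of the other sign.

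Of 346 genes with at least 2 called probe sets, 344 had them all in the same direction and 2 did not. Igk, the kappa light chain, rose at 1 probe set from 267 and 273 to 377 and 363 (0.46 ± 0.11) and fell at the other from 310.1 and 346 to 172 and 155 (-1.004 ± 0.13). Camk2d, a calcium-dependent kinase with many splice forms, fell at a pair of bright probe sets (-0.51 ± 0.062 and -0.61 ± 0.074) and rose at a dim one from 213 and 173 to 298 and 265 (0.55 ± 0.14). At the brightest of its 7 probe sets the log2 fold change was smaller, -0.19, from 4881 and 4432 to 4196 and 3935. The 5 genes with a called 2-fold change and a probe set of the other sign were Arhgap31, Bcas1, Klf3, Nt5e and Trpc4, the last of which was not called without GFP-negative array 2. Those opposite values lay between -0.18 and 0.17 and none was called.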

How the data were processed

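The deposited values are array intensity values on a linear scale, which the authors made with GCOS 1.3, per the submitters' processing notes. The sources used here name no probe summary method, scaling target or genome build. Per the labels, RNA was extracted with Qiagen RNeasy columns and labelled with biotin by the manufacturer's protocol. The linear intensities of the 4 arrays were quantile normalized together. A floor of 32 was applied to the normalized intensities before the log2 transformation. The 40th percentile of mean log2 values, a signal of 41.5, was the minimum for testing. Platform annotation named 34945 of 45037 probe sets by 1 gene symbol, 932 by several and 9160 by none; 64 control probe sets were left out. Each of 12230 genes was read from its brightest probe set, and all 27022 tested probe sets were fitted separately.

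The test was limma 3.58.1 in R 4.3.3 (lmFit, eBayes with a trend on signal, 2 residual and 24.6 prior degrees of freedom), with Benjamini-Hochberg adjustment; it was tested on simulated data. No interval for counting error can be given for arrays, and their number limits the precision. The members and the gene lists were chosen with earlier results of these data known. Named genes are the 30 largest changes, the 10 smallest p-values, the 10 brightest called genes, members of the lists, and genes whose probe sets moved together or apart; other names are marked. Alternatives changed the scaling, floor, filter, variance model, array weights, replicate block, probe set and arrays used. Same-numbered arrays deviated from their group means with a correlation of 0.115 across 12230 genes over only 2 pairs, and the number was not taken as a pairing. Promoter sequences are from RefSeq (GRCm38.p6), and the motif counts cover both strands.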

Additional observations from a re-analysis of the deposited data

How the results depend on the processing

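The number of genes called, 2015, was 1207 without the variance trend, 3039 with the replicate block, 218 with a 2-fold minimum, and between 1264 and 2045 when 1 array was left out. The counts without GFP-positive array 1 and 2 were 1290 and 1264. The number of probe sets called, 2159, was 936 without the trend, 4238 with the replicate block, 339 with a 2-fold minimum, and between 1279 and 2639 when 1 array was left out. List members called numbered 261, against 162 without the trend, 43 with a 2-fold minimum, and between 184 and 237 when 1 array was left out. The 218 genes called with a 2-fold change became 118 under a 60th percentile filter, which tests fewer genes. The count of genes whose probe sets shared a sign, 3383, stayed within 1.5 times that value in every alternative that gave one. Among the log2 fold changes of named genes 3304 alternative values kept their state, called in the same direction or not called. In 49 the call was lost and in 7 it was gained. Igk turned to -0.27 and Tfrc to -0.021 as the mean of their probe sets, and Trpc4 to 0.17 where probe sets of types _s, _x and _a were left out, because another probe set was read. No other named gene changed sign where it was called in the main analysis or in the alternative. Changes of sign in genes called in neither were not counted. The block leaves 1 residual degree of freedom, and the cause of its higher counts was not tested. With 2 arrays a group, a call depends on the variance borrowed across genes. Signals at the floor have no order, and folds from them are bounds.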

Other observations

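Genes named here belong to none of the lists above and were chosen after their values were seen. They include single genes of the Hippo and Wnt pathways, whose other members were not counted. Yap1, the co-activator that Hippo signalling restrains, went from 192 and 239 in the GFP-negative to 64.8 and 79.3 in the GFP-positive cells (log2 fold change -1.58 ± 0.14). Tead1, the DNA-binding partner of that co-activator, went from 107 and 124 to the floor on both GFP-positive arrays, a fall of at least 3.61-fold. Ptpn14, a phosphatase that binds the same co-activator, went from 388 and 427 to 126 and 114 (-1.76 ± 0.12). The Wnt receptor gene Fzd6 went from 307 and 386 to 81.0 and 95.8 (-1.97 ± 0.13), and Axin2, a feedback inhibitor and common readout of Wnt signalling, from 478 and 476 to 197 and 164 (-1.41 ± 0.11). Dimmer probe sets of Yap1 and Axin2 gave -0.40 and -0.18, and that of Wnt5b gave 0.61, none of them called. The ligand gene Wnt5b rose at its brightest probe set, from 115 and 111 to 295 and 308 (1.42 ± 0.12), as did the Notch ligand gene Dll4, from 92.2 and 86.2 to 177 and 188 (1.03 ± 0.13).

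Other single genes with a 2-fold change were called in every analysis that tested them. Crhbp, which encodes a binding protein for corticotropin-releasing hormone, was among the brightest of these and went from 5567 and 5937 to 2320.1 and 2407 (-1.28 ± 0.053). Gfi1, a transcriptional repressor of blood progenitors, went from 435 and 417 to 103 and 123 (-1.92 ± 0.12). Polm, a polymerase that fills gaps at V(D)J joins of light chain genes, went from 164 and 193 to 67.4 and 66.4 (-1.41 ± 0.13). Thbd, the anticoagulant receptor thrombomodulin, went from 682 and 694 to 227 and 217 (-1.63 ± 0.10). Among the rises, Trem1, a receptor better known on myeloid cells, went from 722 and 717 to 1562 and 1648 (1.16 ± 0.074), the adhesion gene Epcam from 276 and 318 to 645 and 707 (1.19 ± 0.10), and Gng4, a G protein subunit, from 390.0 and 398 to 1595 and 1414 (1.93 ± 0.085). Rec8, a cohesin subunit of meiosis, went from 65.6 and 86.7 to 222 and 245 (1.63 ± 0.14).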
